A study of Mus musculus with 10 samples.

Results

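The expression of 10 genes of cell killing was followed through 5 sorted populations of mouse spleen CD4+ T cells: *Gzma*, *Gzmb*, *Gzmk*, *Prf1*, *Nkg7*, *Klrg1*, *Klrd1*, *Fasl*, *Ctsw* and *Ccl5*. They were chosen by name, as granzyme, perforin, killer-receptor and related genes, and are 10 of the 48321 gene symbols in the count tables. The choice was made with earlier results of these data known. Counts of these genes set beside the share of all genes are therefore descriptions and not independent tests. The study asked what the chromatin organizer SATB1 does in CD4+ T cells. It removed *Satb1* with floxed alleles (Satb1 F/F) and Thpok-cre, a Cre recombinase that acts from CD4 lineage commitment onward and therefore in all CD4+ T cells, Tregs included. RNA-seq was done on 10 libraries, 2 in each of 5 groups, from 4 mice of the C57BL/6 strain. Cells were sorted by the surface protein CD25 and by GFP, which was read here as the reporter of FoxP3, the transcription factor that defines Tregs.

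The WT mice gave FoxP3+CD25+ cells, called WT Tregs here, and FoxP3-CD25- cells, called WT non-Tregs. The Satb1 F/F; Thpok-cre mice, called KO here, gave the same populations and also FoxP3+CD25- cells. All groups came from spleen and carried the same reporter. The ages of the mice were not given by library. A WT FoxP3+CD25- group was not analysed here, so the KO FoxP3+CD25- cells could be set only against cells of another phenotype. The numbers 1 and 2 in the labels were read as mice, a reading the labels allow without spelling it out.

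Killer lymphocytes store granzymes, which are proteases, together with perforin in granules that are released onto a target cell. Perforin opens the target's membrane to the granzymes, and FAS ligand offers another route by engaging the death receptor FAS. These programmes are best known from NK cells and CD8+ T cells. Some CD4+ T cells carry them too, and granzyme B has been described in Tregs as a means of suppression. T-bet (*Tbx21*), Eomesodermin (*Eomes*) and RUNX3 are transcription factors known for driving such genes.

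The libraries held 6094952 to 12410064 counts on genes, with a median of 7721649. Levels below are CPM, a gene's share of the reads counted in a library, scaled by TMM, edgeR's correction for library composition, and 3 counts in a library, taken as the floor, equal 0.242 to 0.492 CPM before scaling. The 10 genes held between 0.00693% and 0.0188% of a library's counts, so several rest on a few reads. The sort held at the RNA level: *Foxp3* was at 618 to 739 CPM in the 4 Treg libraries, 318 to 361 CPM in the KO FoxP3+CD25- population and 18.0 to 38.9 CPM in non-Tregs. *Satb1* had 3918 to 9078 counts in the KO libraries and 2963 to 9870 in the WT libraries; a total over all exons does not show whether a floxed part was removed, so it is no check of the knockout. Both libraries of WT mouse 1 had 14487 and 16362 counts of *Xist* and 0 counts of Y-linked genes, whereas the other 8 had at most 4 *Xist* counts. By these counts WT mouse 1 was female and the other mice were male. The WT groups therefore mix the sexes and the KO groups do not, so KO against WT also differs in part by sex. The p-values measure only the spread between the 2 libraries within each group, pooled over all 5 groups in 1 model.

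In the mouse genome build mm10 (GRCm38, GENCODE M21 annotation), all 10 are protein-coding genes. *Gzma* (chr13:113093825-113100981) and *Gzmk* (chr13:113171608-113225908) lie on the same strand of chromosome 13, 70626 bases apart, and *Klrg1* (chr6:122270596-122282882) and *Klrd1* (chr6:129591782-129598775) share chromosome 6. The others were at chr14:56258838-56262260 (*Gzmb*), chr10:61297833-61304680 (*Prf1*), chr7:43437073-43438249 (*Nkg7*), chr1:161780689-161788495 (*Fasl*), chr19:5465043-5468507 (*Ctsw*) and chr11:83525778-83530518 (*Ccl5*). *Gzmk* spans another gene, *Esm1*, with which it shares 0 exon bases, and *Ctsw* shares 9 exon bases with *Fibp*. Whether reads were counted by strand was not stated.

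Promoters were read from RefSeq (build GRCm38.p6), as 250 bases before to 50 bases after the start of transcription. A RefSeq promoter was matched for 6 of the 10 genes: *Gzma*, *Gzmb*, *Gzmk*, *Prf1*, *Nkg7* and *Fasl*, and was not used here for *Klrg1*, *Klrd1*, *Ctsw* and *Ccl5*. A T-box motif (TCACACC, the kind of site that T-bet and Eomesodermin bind) and a RUNX motif (TGTGGT) were searched on both strands. The 4 sequences shown, of the 6 matched, are those of 2 granzymes, perforin and *Nkg7*, the granule genes that the comparisons turn on. They are written 5′ to 3′ along the gene, with motif matches on either strand in capitals.
Gzmb (chr14:56262285-56262584, minus strand): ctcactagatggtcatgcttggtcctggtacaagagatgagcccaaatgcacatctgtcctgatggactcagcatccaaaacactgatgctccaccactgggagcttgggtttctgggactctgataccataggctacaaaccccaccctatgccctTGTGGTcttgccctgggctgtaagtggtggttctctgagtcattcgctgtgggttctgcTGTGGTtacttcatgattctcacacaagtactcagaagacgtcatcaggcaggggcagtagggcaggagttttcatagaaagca
Gzmk (chr13:113180916-113181215, minus strand): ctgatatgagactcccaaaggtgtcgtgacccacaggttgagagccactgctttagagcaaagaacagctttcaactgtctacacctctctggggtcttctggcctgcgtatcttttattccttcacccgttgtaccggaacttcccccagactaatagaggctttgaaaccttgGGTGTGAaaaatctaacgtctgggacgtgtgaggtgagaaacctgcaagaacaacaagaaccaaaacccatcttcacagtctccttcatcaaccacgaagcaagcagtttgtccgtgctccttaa
Prf1 (chr10:61297586-61297885, plus strand): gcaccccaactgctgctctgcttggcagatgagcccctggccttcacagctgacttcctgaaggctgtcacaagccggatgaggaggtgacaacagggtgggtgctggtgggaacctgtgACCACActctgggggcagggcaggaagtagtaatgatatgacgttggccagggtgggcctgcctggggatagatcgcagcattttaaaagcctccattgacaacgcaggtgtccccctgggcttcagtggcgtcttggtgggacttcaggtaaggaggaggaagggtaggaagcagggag
Nkg7 (chr7:43436888-43437187, plus strand): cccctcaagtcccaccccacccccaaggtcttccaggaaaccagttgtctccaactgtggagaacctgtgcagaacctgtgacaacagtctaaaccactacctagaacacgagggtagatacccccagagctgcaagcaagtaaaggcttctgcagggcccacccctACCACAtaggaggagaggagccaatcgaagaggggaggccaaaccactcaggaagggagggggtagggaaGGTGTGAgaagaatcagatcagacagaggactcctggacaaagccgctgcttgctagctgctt
The *Gzmb* sequence held 2 RUNX matches, starting 93 and 34 bases before the start. *Gzmk* held a T-box match 75 bases before the start, *Prf1* a RUNX match 130 bases before it, and *Nkg7* a RUNX match 83 and a T-box match 13 bases before it. The matches did not overlap each other. *Gzma* held a RUNX match 50 bases before the start, and *Fasl* held neither. The *Gzmk* window lies inside that gene's GENCODE span, so the start used for it is not the span's upstream end. The *Gzmb* window lies wholly outside that gene's span, upstream of it. The *Nkg7* start used lies inside its span, as does its T-box match. The T-box letters were in 2 of the 6 promoters and in 3.98% of all 32851 RefSeq promoters, and the RUNX letters were in 4 of the 6 and in 16.8% of all. A match describes letters in this window and not a bound site.

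Per kilobase of exon, which allows genes to be set against each other, the gene with the highest group mean changed with the population. *Ctsw* (cathepsin W, a protease of killer cells) led in WT Tregs at 23.2 CPM per kb and in KO Tregs at 20.5 CPM per kb. *Ccl5*, a chemokine that draws T cells and monocytes, led in WT non-Tregs at 24.3 CPM per kb and in KO non-Tregs at 20.4 CPM per kb, each time through 1 library. In WT mouse 1 *Ccl5* was at 44.7 CPM per kb, but in WT mouse 2 it was at 3.87, below *Prf1* (20.4), *Ctsw* (12.2) and *Nkg7* (6.77). In KO mouse 2 it was above *Nkg7* (24.7 against 22.5 CPM per kb) and in KO mouse 1 below it (16.0 against 17.7). *Prf1* led in KO FoxP3+CD25- cells at 12.8 CPM per kb. Granzymes were low beside these, at no more than 4.95 CPM per kb in any group mean.

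**Figure D1:**
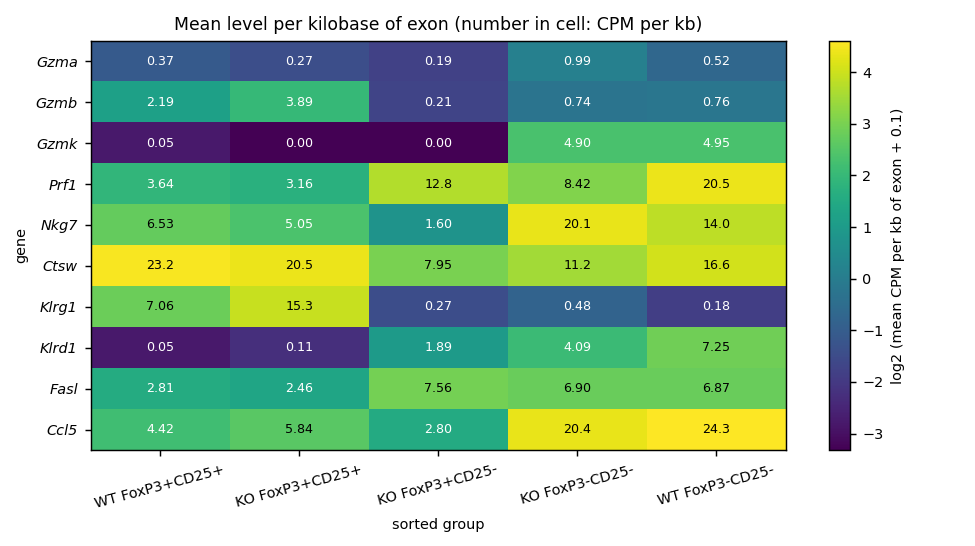
Mean level of each of the 10 genes (rows) in each sorted group (columns, 2 libraries each), in CPM per kilobase of exon printed in each cell and coloured on a log2 scale after adding 0.1. *Ctsw* is the highest cell of both Treg columns, *Prf1* of the KO FoxP3+CD25- column and *Ccl5* of both non-Treg columns. The lead of *Ccl5* rests on 1 library of each non-Treg group.

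Among the granzymes, *Gzmb* encodes the protease best known for starting apoptosis in targets. Its level was 3.33 and 2.95 CPM in WT Tregs, 7.63 and 3.54 in KO Tregs, 1.66 and 0.52 in WT non-Tregs, 1.32 and 0.79 in KO non-Tregs, and 0.48 and 0.11 in KO FoxP3+CD25- cells. All 4 Treg libraries were above all 6 others. KO FoxP3+CD25- cells were lowest, with 3 and 1 counts. *Gzmk*, a granzyme of memory-type T cells, was instead higher in non-Tregs than in Tregs. Its level was 11.26 and 2.48 CPM in WT non-Tregs and 3.47 and 10.14 CPM in KO non-Tregs. In WT Tregs it had 1 and 0 counts, and in both KO Tregs and KO FoxP3+CD25- cells 0 counts in each library. The replicates of non-Tregs stood 4.55-fold (WT) and 2.92-fold (KO) apart, so the mean of that group carries a wide error. *Gzma*, a trypsin-like granzyme, had 1 to 9 counts in every library and a highest level of 1.32 CPM, in KO non-Tregs. It did not pass the filter on low counts and was not tested.

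*Prf1*, which encodes perforin, had close replicates. Its level was 53.34 and 52.73 CPM in WT non-Tregs. KO FoxP3+CD25- cells followed at 30.87 and 35.23 CPM. Lower still were 20.18 and 23.32 CPM in KO non-Tregs, 9.85 and 8.98 in WT Tregs, and 7.93 and 8.39 in KO Tregs. The groups fell in this order without overlap at any step, although neighbours lower in the order were near each other. *Nkg7* encodes a granule membrane protein needed for degranulation. It stood at 16.21 and 20.55 CPM in KO non-Tregs, 19.46 and 6.19 in WT non-Tregs, 6.14 and 5.79 in WT Tregs, 5.04 and 4.19 in KO Tregs, and 1.94 and 0.98 in KO FoxP3+CD25- cells. Perforin and *Nkg7* thus parted in KO FoxP3+CD25- cells, where *Prf1* was the second of the 5 groups and *Nkg7* the last. *Ctsw* was at 38.77 and 48.67 CPM in WT Tregs, 38.45 and 38.78 in KO Tregs, 39.76 and 23.01 in WT non-Tregs, 20.84 and 21.61 in KO non-Tregs, and 15.68 and 14.33 in KO FoxP3+CD25- cells. It varied least among the 9 genes tested, with a root mean square deviation of 0.59 log2 units over the libraries.

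*Klrg1* encodes an inhibitory receptor for cadherins that marks terminally differentiated effector cells and activated Tregs. Its level was 24.57 and 18.60 CPM in KO Tregs and 7.81 and 12.17 CPM in WT Tregs. The other 6 libraries held 0 to 9 counts, at most 1.19 CPM. *Klrd1* encodes CD94, which pairs with NKG2 proteins to read the MHC molecule Qa-1. It was at 9.19 and 9.39 CPM in WT non-Tregs, 2.98 and 7.51 in KO non-Tregs, and 1.45 and 3.39 in KO FoxP3+CD25- cells. Treg libraries had 0 or 1 *Klrd1* count each. The killer receptors therefore divided the populations in opposite ways, *Klrg1* being high in Tregs and *Klrd1* outside them.

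*Fasl*, which encodes FAS ligand, was at 14.74 and 11.87 CPM in WT non-Tregs, and at 15.55 and 11.20 in KO non-Tregs. KO FoxP3+CD25- cells stood at 16.49 and 12.80 CPM. Tregs had less, 4.99 and 5.91 CPM in WT and 5.19 and 4.32 in KO. The 6 libraries outside Tregs overlapped among groups and were all above the 4 Treg libraries. *Ccl5* was at 42.90 and 3.71 CPM in WT non-Tregs, 15.38 and 23.71 in KO non-Tregs, 6.10 and 5.11 in KO Tregs, 6.01 and 2.48 in WT Tregs, and 3.07 and 2.30 in KO FoxP3+CD25- cells. The WT non-Treg replicates lay 11.5-fold apart, the widest gap among groups with counts in both libraries, so every *Ccl5* comparison with that group rests on WT mouse 1.

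**Figure D2:**
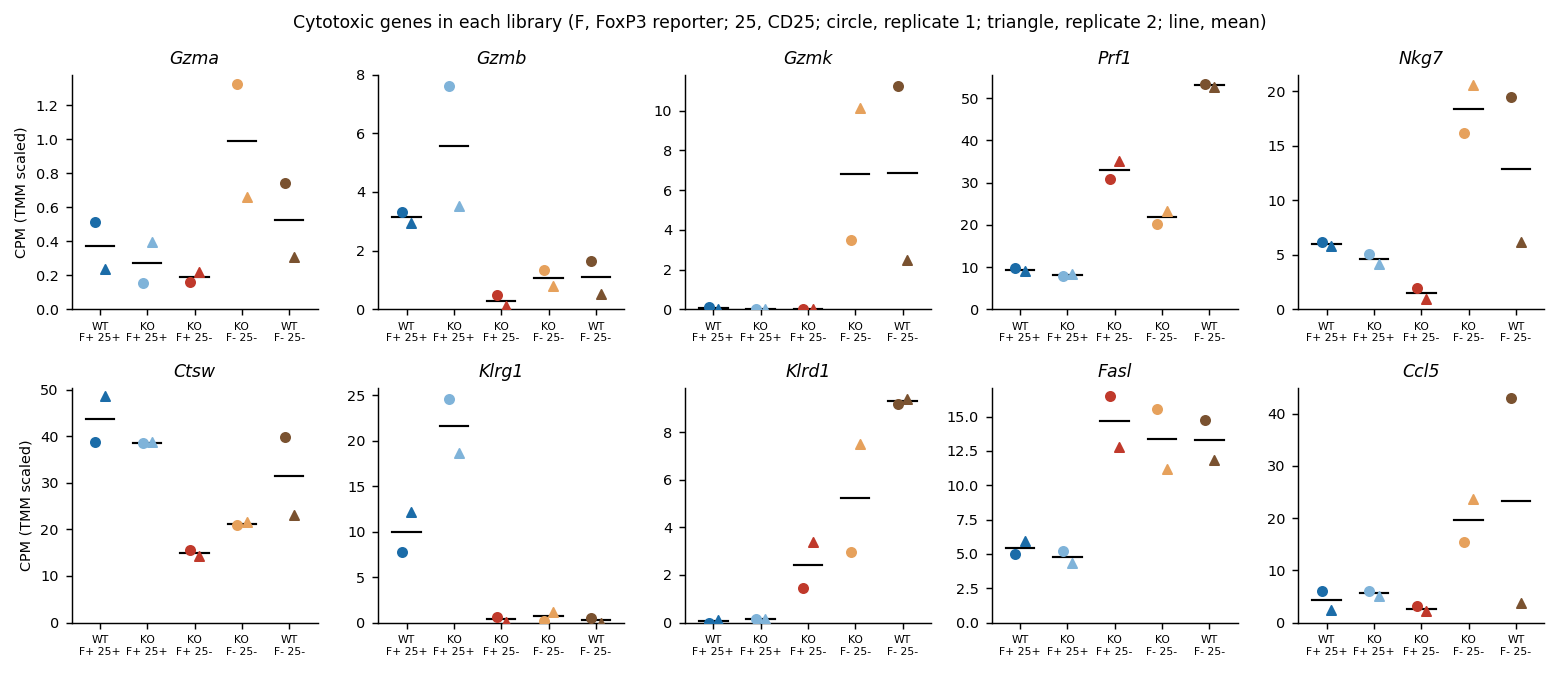
Level in CPM (TMM scaled) of each gene in each library, by sorted group (F, FoxP3 reporter; 25, CD25), with a circle for mouse 1, a triangle for mouse 2 and a line at the mean of the 2. *Gzmb* and *Klrg1* are highest in the 4 Treg libraries, *Gzmk*, *Klrd1* and *Fasl* are higher outside them, and the WT non-Treg points of *Ccl5* stand at 42.90 and 3.71 CPM.

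The comparison of WT Tregs with WT non-Tregs asks which of these genes separate the populations in normal mice. *Prf1*, *Fasl*, *Klrd1* and *Gzmk* were lower in Tregs and *Klrg1* was higher. Of the 9 genes tested, 5 passed FDR 0.05 in edgeR's quasi-likelihood test, 1 higher and 4 lower, against 10.9% of the 13796 genes tested (7.15% higher and 3.75% lower). *Klrg1* had passed the filter on low counts only through Tregs, and *Gzmk* and *Klrd1* only through cells outside them. Their part in this count, and in later counts that set Tregs against other cells, was therefore partly fixed in advance by the filter. *Klrg1* was 34.6-fold higher (log2 fold change 5.11, SE 0.65, FDR 0.00042). That fold rests on 6 and 0 counts in the non-Treg libraries, and over the settings run it ranged from 4.29 to 9.55 on the log2 scale and passed in 11 of 11. *Prf1* was 5.63-fold lower (log2 fold change -2.49, SE 0.15, FDR 6.2e-06) and *Fasl* 2.44-fold lower (-1.29, SE 0.26, FDR 0.0074). *Klrd1* had 1 count in Tregs against 202 in non-Tregs, a ratio of 151 scaled to depth (95% counting interval 26.8 to 5998, edgeR FDR 6.7e-05). *Gzmk* had 1 against 160, a ratio of 120 (21.2 to 4757, edgeR FDR 0.015). These intervals cover counting error only. In bulk libraries, fewer cells that express a gene and less of its RNA in each cell cannot be told apart.

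The remaining 4 genes did not pass in WT mice: *Gzmb* at 1.45 on the log2 scale (95% interval 0.22 to 2.68), *Nkg7* at -1.13 (-2.12 to -0.14), *Ctsw* at 0.47 (-0.01 to 0.95) and *Ccl5* at -2.50 (-4.38 to -0.61). With the mouse as a block, edgeR also called *Gzmb* (FDR 0.025) and *Ccl5* (FDR 0.0014), in a fit that called 19.1% of all genes. Without the WT non-Treg library of mouse 1, however, *Ccl5* went to 0.16. *Prf1*, *Klrg1* and *Klrd1* passed with any of the 4 libraries left out, *Fasl* was lost without the Treg (FDR 0.056) or the non-Treg (FDR 0.068) library of mouse 1, and *Gzmk* was lost without 3 of the 4 (FDR 0.094 to 0.13). The libraries of the groups did not overlap for 7 of the 9 genes, against 47.0% of all genes tested.

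In KO mice, the same contrast of Tregs with non-Tregs gave 7 of 9 genes, 2 higher and 5 lower, against 6.34% of all genes (3.52% higher, 2.81% lower). The 7 again include *Klrg1*, *Gzmk* and *Klrd1*, which passed the filter only through the cells where they were high. *Klrg1* was 28.9-fold higher (log2 4.85, SE 0.56, edgeR FDR 0.00044; 4.16 to 6.90 over 10 settings, all of which passed, on 1 and 9 counts in non-Tregs) and *Gzmb* 5.26-fold higher (2.40, SE 0.59, FDR 0.034). *Prf1* was 2.67-fold lower (-1.41, SE 0.17, FDR 0.00065), *Fasl* 2.80-fold lower (-1.48, SE 0.28, FDR 0.0097) and *Nkg7* 4.01-fold lower (-2.0, SE 0.48, FDR 0.032). *Gzmk*, at 0 counts in KO Tregs against 98 in non-Tregs, was at least 16.0-fold lower when Tregs are set to 3 counts a library (edgeR FDR 0.030). *Klrd1* had 2 against 75 counts, a ratio of 39.0 (counting interval 10.4 to 328, edgeR FDR 0.0018). *Ctsw* (log2 0.86, 95% interval 0.34 to 1.38, edgeR FDR 0.056) and *Ccl5* (-1.82, -3.74 to 0.10) did not pass, and with the mouse as a block both did (FDR 0.028 and 0.0070), in a fit that called 12.0% of all genes. *Prf1* and *Klrg1* alone passed whichever of the 4 libraries was left out, and *Nkg7* passed in none of these 4 fits. *Gzmb* and *Gzmk* were each lost in 3 of these fits (FDR 0.12 to 0.27 and 0.12 to 0.18), *Fasl* without the Treg library of mouse 2 or the non-Treg library of mouse 1 (FDR 0.10 and 0.080), and *Klrd1* without the Treg library of mouse 2 (FDR 0.051). All 9 genes had groups that did not overlap, against 46.5% of all genes.

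Setting KO against WT within Tregs asks whether loss of *Satb1* moves these genes in cells that keep FoxP3 and CD25. None of the 9 passed in edgeR's test, and none passed in DESeq2, against 0.00725% of all genes in edgeR; 1 of the 9 had an unadjusted p under 0.05. That gene was *Klrg1*, 2.14-fold higher in KO Tregs with both libraries above both WT libraries (log2 1.10, 95% interval 0.33 to 1.87, edgeR FDR 1.0). *Gzmb* was at 0.80 (-0.20 to 1.80) on the same scale. *Prf1* was at -0.20 with an interval of -0.60 to 0.20, the narrowest of the 9, and *Fasl* at -0.21 (-0.89 to 0.48). *Gzmk* and *Klrd1* were at or under the floor of 3 counts in both groups and allow no fold. The libraries of KO and WT Tregs did not overlap for 5 of the 9 genes, against 27.7% of all genes. The 5 include *Klrd1*, whose gap rests on 0 or 1 count a library and carries no weight.

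In non-Tregs, KO against WT gave 1 gene, *Prf1*. Perforin RNA was 2.43-fold lower in KO non-Tregs, at 21.7 ± 2.2 CPM against 53.0 ± 0.4 CPM (SD, n = 2 libraries each; log2 fold change -1.28, SE 0.14, edgeR FDR 0.0076). It stood at rank 4 by p-value of the 13796 genes, of which 0.145% passed and 0.029% passed as lower. The call was lost when any of the 4 libraries was left out (FDR 0.054 to 0.10), while the fold change kept between -1.39 and -1.18. It passed without both libraries of WT mouse 1 (FDR 0.049). *Fasl* was at -0.01 with an interval of -0.52 to 0.50. *Ctsw* (-0.57, -1.08 to -0.06) and *Klrd1* (-0.78, -1.52 to -0.03) were lower in both KO libraries than in both WT libraries but did not pass (edgeR FDR 0.55 and 0.60). *Gzmb*, *Gzmk*, *Nkg7*, *Klrg1* and *Ccl5* had overlapping groups. The libraries did not overlap for 3 of the 9 genes, against 38.3% of all genes. The fold of *Ccl5* rested on WT mouse 1: it was -0.27 with all libraries and 2.41 without its non-Treg library.

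Whether the contrast of Tregs with non-Tregs differed between genotypes was tested as an interaction. In edgeR 0 of the 9 genes passed, as did 0.0% of all genes, and 1 of the 9 and 685 of all genes had an unadjusted p under 0.05. DESeq2 also called 0 of the 9. The single gene was *Prf1*, whose deficit in Tregs was smaller in KO mice by 1.08 on the log2 scale (SE 0.23, 95% interval 0.57 to 1.59, edgeR FDR 0.48). With the mouse as a block the same difference passed (1.08, SE 0.21, FDR 0.036), 1 of the 9 against 1.07% of all genes.

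**Figure D3:**
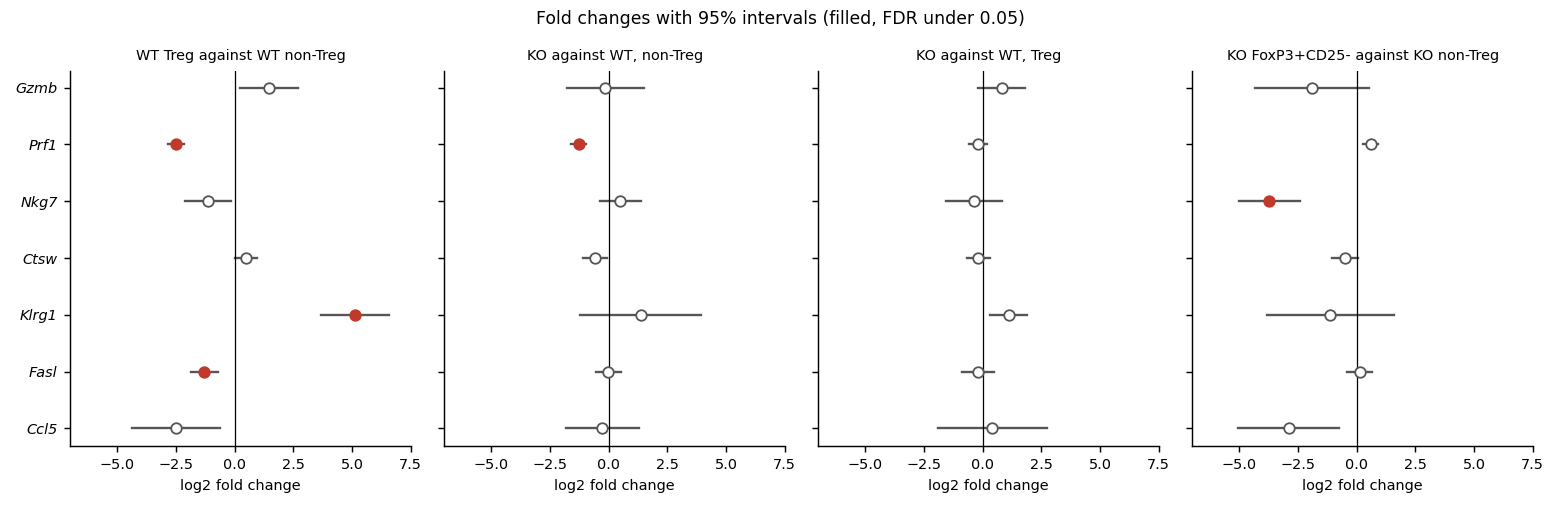
Log2 fold changes with 95% intervals of 7 genes in 4 comparisons, from edgeR's fit to all 10 libraries; filled points passed FDR 0.05, and *Gzmk* and *Klrd1* are left out because a group held 0 to 3 counts. *Prf1* is the filled point at -1.28 in KO against WT non-Tregs, and no point is filled in KO against WT Tregs.

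KO FoxP3+CD25- cells hold FoxP3 without CD25, and were set first against KO non-Tregs of the same mice. *Nkg7* was 13.2-fold lower in them, at 1.46 ± 0.68 CPM against 18.4 ± 3.1 CPM (SD, n = 2; log2 -3.73, SE 0.59, edgeR FDR 0.011). It was the 1 gene of 9 called, against 1.67% of all genes (0.319% higher and 1.35% lower). *Gzmk* had 0 counts against 98, at least 16.7-fold lower with the floor of 3 counts a library, and its edgeR FDR was 0.067. *Prf1* was 1.52-fold higher (log2 0.60, 95% interval 0.28 to 0.93, FDR 0.077). *Ccl5* was at -2.90 (-5.06 to -0.74, FDR 0.24) and *Fasl* at 0.13 (-0.40 to 0.66). *Gzma*, outside the test, had 3 counts against 13, a ratio of 4.87 with a counting interval of 1.34 to 26.6. Against WT non-Tregs it had 3 counts against 12, a ratio of 2.82 with an interval of 0.76 to 15.6, which spans equal levels. Both intervals leave out the spread between mice.

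Because both populations came from the same KO mice, the blocked fit bears on this comparison. With the mouse as a block 4 of the 9 passed, against 5.7% of all genes: *Nkg7* (FDR 0.00047), *Gzmk* (FDR 0.00041) and *Ccl5* (FDR 0.0019) as lower and *Prf1* (FDR 0.016) as higher. Without the block, *Nkg7* was lost when any of 3 of the 4 libraries was left out (FDR 0.051 to 0.16). The groups did not overlap for 6 of the 9 genes, against 39.3% of all genes.

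Against KO Tregs, KO FoxP3+CD25- cells differed in 6 of 9 genes, 3 higher and 3 lower (7.01% of all genes, 2.25% higher and 4.76% lower). *Prf1* was 4.05-fold higher (log2 2.02, SE 0.16, edgeR FDR 7.3e-05) and *Fasl* 3.06-fold higher (1.61, SE 0.28, FDR 0.0049). *Klrd1* rose from 2 to 40 counts, a ratio of 18.5 with a counting interval of 4.80 to 158 (edgeR FDR 0.018). *Klrg1* was 62.7-fold lower on 4 and 1 counts in the low group (-5.97, SE 0.63, FDR 0.00024; -7.44 to -5.02 over 10 settings, all of which passed), *Gzmb* 19.8-fold lower on 4 counts in the low group (-4.31, SE 0.76, FDR 0.0052) and *Ctsw* 2.58-fold lower (-1.37, SE 0.24, FDR 0.0057). *Prf1* and *Klrg1* passed with any of the 4 libraries left out. Leaving out the KO FoxP3+CD25- library of mouse 2 ended the calls of *Gzmb* (FDR 0.099), *Ctsw* (FDR 0.067) and *Klrd1* (FDR 0.22), and leaving out the KO Treg library of mouse 2 ended that of *Fasl* (FDR 0.055) and *Klrd1* (FDR 0.19). *Klrd1* was lost without the KO Treg library of mouse 1 as well (FDR 0.15). The groups of 8 genes did not overlap, against 49.3% of all genes.

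The comparisons of KO FoxP3+CD25- cells with WT cells share these libraries and are not separate evidence. Against WT Tregs, 6 of 9 genes passed (11.2% of all; 3.88% higher, 7.34% lower). *Prf1* (log2 1.82, SE 0.16, edgeR FDR 6.7e-05), *Fasl* (1.41, SE 0.26, FDR 0.0053) and *Klrd1* (40 counts against 1, ratio 42.5, counting interval 7.20 to 1720, edgeR FDR 0.0058) were higher. *Klrg1* (-4.87, SE 0.70, FDR 0.00091; -6.34 to -3.91 over 10 settings on the same few counts), *Gzmb* (-3.51, SE 0.84, FDR 0.019) and *Ctsw* (-1.55, SE 0.24, FDR 0.0017) were lower. *Gzmb* was lost without either KO FoxP3+CD25- library or the WT Treg library of mouse 1 (FDR 0.056 to 0.21), and *Klrd1* without the last of these or the KO FoxP3+CD25- library of mouse 2 (FDR 0.062 and 0.097). Against WT non-Tregs, 2 of 9 passed as lower (0.768% of all genes; 0.413% lower): *Nkg7*, 9.38-fold (-3.23, SE 0.60, edgeR FDR 0.040), and *Klrd1*, 3.59-fold (-1.85, SE 0.39, FDR 0.048). Both calls fell away without the WT non-Treg library of mouse 1 (FDR 0.17 and 0.25) and without either KO FoxP3+CD25- library (FDR 0.13 to 0.39), and *Klrd1* was lost without the WT non-Treg library of mouse 2 as well (FDR 0.16). DESeq2 did not call *Klrd1* (adjusted p 0.096). *Prf1* was at -0.68 (95% interval -0.98 to -0.38, edgeR FDR 0.055) and *Gzmk* at least 16.9-fold lower (edgeR FDR 0.090). The groups did not overlap for 7 of the 9 in each of these comparisons, against 47.7% of all genes (WT Tregs) and 37.5% (WT non-Tregs).

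Related genes were counted in lists chosen by function, also with earlier results of these data known, so these counts too are descriptions. Of 17 other granzymes and granule proteins, 10 were tested. *Cst7* encodes cystatin F, an inhibitor that acts on the enzyme that activates granzymes. It was at 66.4 ± 5.5 CPM in WT Tregs against 20.7 ± 2.5 CPM in WT non-Tregs (log2 1.68, SE 0.15, edgeR FDR 6.7e-05), and it was likewise higher in KO Tregs than KO non-Tregs (1.34, SE 0.16, FDR 0.00069). In WT mice 3 of the 10 rose in Tregs, against 7.15% of all genes, and 0 fell (list median 0.28, all genes -0.02 on the log2 scale), the others being *Srgn* (serglycin, the granule proteoglycan; 0.53, SE 0.14, FDR 0.033) and *Serpinb6b* (0.71, SE 0.18, FDR 0.030). In KO mice *Cst7* was the 1 of 10 that passed, against 6.34% of all genes. In KO FoxP3+CD25- cells *Cst7* was at 14.7 ± 2.5 CPM, lower than in KO Tregs (-1.82, SE 0.17, FDR 0.00013). *Gzmd*, *Gzme*, *Gzmf*, *Gzmg* and *Gzmn*, relatives of *Gzmb*, had 0 counts in all 10 libraries.

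Of 15 genes of granule release, 14 were tested. In WT Tregs 3 rose and 2 fell (5 of 14 against 10.9% of all genes; list median 0.01 on the log2 scale), and in KO Tregs 1 rose and 2 fell (3 of 14 against 6.34%; median 0.09). *Sytl1*, encoding a synaptotagmin-like protein that binds RAB27A, rose in Tregs of WT (1.06, SE 0.16, edgeR FDR 0.0016) and KO mice (1.32, SE 0.18, FDR 0.0013). *Sytl3*, of the same family, fell by 2.98 (SE 0.48, FDR 0.0021) and by 2.27 (SE 0.34, FDR 0.0027). *Lyst*, a regulator of granule size, fell by 1.13 (SE 0.14, FDR 0.00036) and by 0.88 (SE 0.14, FDR 0.0031). *Sytl3* was also the 1 gene of the list called between KO FoxP3+CD25- cells and KO non-Tregs, lower by 2.73 on the log2 scale (SE 0.36, FDR 0.0041), 1 of 14 against 1.67% of all genes.

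Of 29 other killer and NK-type receptors 27 were in the tables and 8 passed the filter. *Klrk1* (NKG2D) had 0 counts in both WT Treg libraries against 1.49 and 2.48 CPM in WT non-Tregs, and was the 1 of 8 called there (edgeR FDR 0.014) and in KO mice (FDR 0.027), in each as lower in Tregs; 3.75% and 2.81% of all genes were called lower. *Slamf7*, a receptor of the SLAM family, was at 2.1 and 2.52 CPM in KO FoxP3+CD25- cells against 9.92 and 12 CPM in KO non-Tregs (log2 -2.23, SE 0.39, FDR 0.017). Of 10 other death ligands and receptors, all tested, 4 rose and 1 fell in WT Tregs (list median 0.47; 7.15% and 3.75% of all genes) and 5 rose and 0 fell in KO Tregs (0.49; 3.52% and 2.81%). They included *Tnfsf10* (TRAIL; 1.13, SE 0.13, edgeR FDR 0.00023 in WT and 1.72, SE 0.13, FDR 4.0e-05 in KO) and *Fas* itself (1.04, SE 0.14, FDR 0.00081 and 0.85, SE 0.15, FDR 0.0059). TRAIL and *Fasl*, both death ligands, thus ran in opposite directions between the populations. Of 7 other chemokine and chemokine-receptor genes of killer cells 3 were tested, and 0 passed in either contrast of Tregs with non-Tregs.

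Of 17 transcription factors of cytotoxic and memory programmes, all tested, 3 passed between KO FoxP3+CD25- cells and KO non-Tregs, all lower, against 1.35% of all genes called lower (list median -0.61, all genes 0.01). *Tbx21* was at 1.13 and 1.42 CPM against 14.4 and 26.6 CPM, 15.8-fold lower (log2 -3.98, SE 0.49, edgeR FDR 0.0028). *Eomes* was at 3.07 and 1.86 CPM against 10.4 and 19.4 CPM (-2.66, SE 0.56, FDR 0.043). *Zfp683*, encoding HOBIT, was the third. *Runx3* showed no such gap, at 167 and 122 CPM against 186 and 151 CPM (-0.22, FDR 0.87). Against WT non-Tregs, 2 of the 17 passed (0.413% of all genes were called lower), *Tbx21* (-3.15, SE 0.50, FDR 0.021) and *Eomes* (-2.93, SE 0.53, FDR 0.040), both lower. Between KO and WT non-Tregs, where *Prf1* fell, 1 of the 17 passed against 0.145% of all genes. It was *Id3* (1.19, SE 0.18, FDR 0.033), a gene of naive and memory-precursor cells, higher in KO. Between WT Tregs and WT non-Tregs 10 of the 17 passed, 5 higher and 5 lower (7.15% and 3.75% of all genes). *Eomes* was lower in WT Tregs too (-2.81, SE 0.52, edgeR FDR 0.0049), as were *Lef1* and *Tcf7*, and *Hopx* was higher. Between KO Tregs and KO non-Tregs 7 passed, 1 higher and 6 lower (3.52% and 2.81% of all genes).

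**Figure D4:**
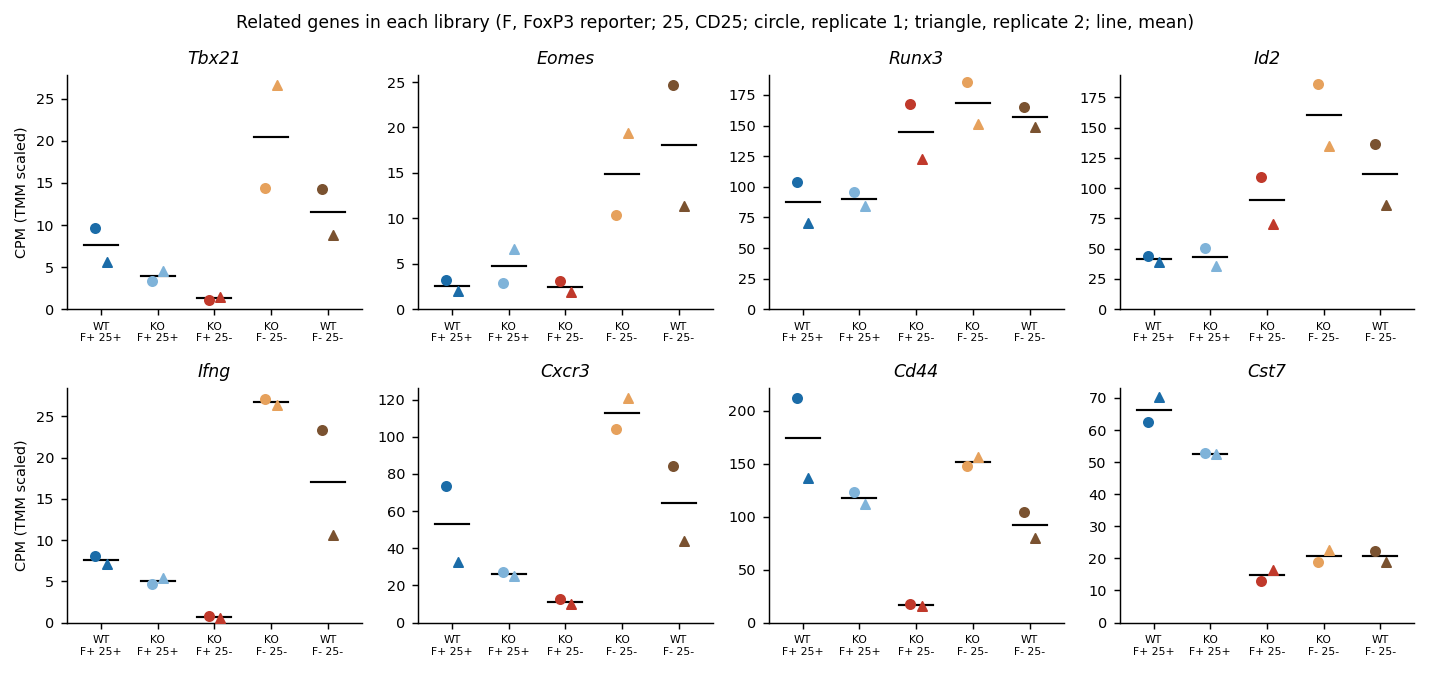
Level in CPM (TMM scaled) of 8 related genes in each library, by sorted group (F, FoxP3 reporter; 25, CD25), with a circle for mouse 1, a triangle for mouse 2 and a line at the mean. *Tbx21*, *Ifng*, *Cxcr3* and *Cd44* are lowest in KO FoxP3+CD25- cells, *Runx3* is 122 and 167 CPM there, and *Cst7* is highest in the 4 Treg libraries.

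Markers of memory and of other cell types moved with some of these results, and their part in them was not tested. Summed over 10 effector-memory genes, levels were 1762 to 1956 CPM in WT Tregs and 1484 to 1720 CPM in KO Tregs. Non-Tregs stood at 809 to 1221 CPM in WT and 1611 to 2087 CPM in KO. Such sums follow the most abundant genes, and the list was split. In WT Tregs against non-Tregs 2 of the 10 were called higher and 2 lower (list median -0.11 on the log2 scale), against 7.15% and 3.75% of all genes. In KO mice 1 was higher and 4 lower (median -1.52), against 3.52% and 2.81%. KO FoxP3+CD25- cells had the lowest sums, at 440 to 520 CPM. In the comparison with KO non-Tregs 6 of the 10 were lower and 0 higher, against 1.35% and 0.319% of all genes, among them *Cd44* (log2 -3.17, SE 0.22, edgeR FDR 0.00016) and *Ifng* (-5.32, SE 0.50, FDR 0.00060). The 7 naive-cell markers summed to 6509 to 6779 CPM in KO FoxP3+CD25- cells and 6196 to 6388 CPM in KO non-Tregs. They summed to 6637 to 6776 CPM in WT non-Tregs, 3178 to 3916 in WT Tregs and 3674 to 3696 in KO Tregs. The 10 NK markers summed to 4.49 to 5.63 CPM in WT Tregs, 7.32 to 9.70 in KO Tregs, 6.24 to 6.95 in KO FoxP3+CD25- cells, 16.8 to 29.7 in WT non-Tregs and 19.2 to 32.1 in KO non-Tregs. Of these 10, *Ncr1*, *Klra4*, *Klra8* and *Klri2* had at most 3 counts in every library. *Ncr1* encodes NKp46, a receptor typical of NK cells. *Eomes*, given above among the transcription factors, is also in this NK list. It was at 18.0 ± 9.4 CPM in WT non-Tregs and 14.9 ± 6.3 CPM in KO non-Tregs (SD, n = 2), the larger part of those sums. In WT Tregs *Eomes* was at 2.60 ± 0.84 CPM and in KO FoxP3+CD25- cells at 2.47 ± 0.86 CPM. The gap in the NK sums thus largely repeats that of *Eomes*. The 7 B-cell markers summed to 5.47 to 6.79 CPM in KO FoxP3+CD25- cells, below every other group: 14.1 to 17.6 CPM in WT non-Tregs, 23.8 to 28.8 in KO non-Tregs, 26.6 to 34.4 in WT Tregs and 20.8 to 24.7 in KO Tregs. *Cd22* was among them, lower by 3.65 on the log2 scale than in KO non-Tregs (SE 0.36, edgeR FDR 0.00083). The 7 markers of gamma-delta T and NKT cells in the tables summed to 17.7 to 24.6 CPM in WT Tregs and 13.5 to 13.8 in WT non-Tregs, and in KO mice to 27.8 to 31.3 in Tregs, 19.0 to 20.5 in FoxP3+CD25- cells and 21.1 to 29.4 in non-Tregs. One of them, *Tcrg-C4*, was at 6.73 CPM in WT Tregs against 0.61 CPM in WT non-Tregs (log2 3.37, SE 0.38, edgeR FDR 0.00015), and another, *Zbtb16*, had 0 counts in KO FoxP3+CD25- cells against 8 and 20 in KO non-Tregs (edgeR FDR 0.021). Myeloid and dendritic markers summed to 18.1 to 30.2 CPM over all groups. The CD8 genes *Cd8a* and *Cd8b1* together reached 9.38 to 16.6 CPM across all groups, against 3595 to 4835 CPM for 7 markers of CD4+ T cells.

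The genes whose profiles over the 10 libraries lay nearest to each of these were found by the root mean square distance between centred log2 CPM. These are descriptions over libraries that share mice and groups. *Tbx21* (distance 0.44), *Cxcr3* (0.37) and *Prr5l* (0.29) were the 3 nearest to *Nkg7*. *Gzmb* had *Tcrg-C2* (0.40), *Bcat1* (0.43) and *Adap1* (0.44), and *Gzmk* had *Il21* (0.55), *Edn3* (0.78) and *Gm12534* (0.79). *Prf1* was nearest to *Als2cl* (0.29), *Gm43127* (0.30) and *Ntrk3* (0.33). The nearest genes were *App* (0.49), *Lypd6b* (0.52) and *Atp8b4* (0.53) for *Klrd1*, and *Hgf* (0.76), *Sh3bgrl2* (0.77) and *Matn2* (0.82) for *Klrg1*. *Fasl* had *Xylt2*, *Rtn4rl1* and *Gramd1a*, each at 0.22, and *Ctsw* had *Tank* (0.22), *Dctd* (0.26) and *Lap3* (0.26). *Ccl5* had no closer gene than *Ncald* and *Cx3cr1*, each at 0.66, with *Enpp2* at 0.69. Among the 10 genes themselves, the nearest pair of those tested was *Prf1* and *Fasl* at 0.54, followed by *Nkg7* and *Ccl5* at 0.67.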

How the data were processed

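Per the authors, 50-base reads went through HISAT2 2.1.0 (genome mm10) and were tallied by gene symbol in HTSeq; the paper's methods and the submitters' processing notes give different versions of HTSeq, the latter 0.11.1. The deposited values are raw counts, with reads on genes at 26.0% to 28.5% of all reads and HTSeq's tallies of unassigned reads left out here. The strand setting and the annotation were not stated; positions came from GENCODE M21.

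Tests were run in R 4.3.3 with edgeR 4.0.16, which loads limma 3.58.1. Genes passed filterByExpr at min.count 10, which kept 13796, and were scaled by TMM before the quasi-likelihood F-test (legacy=FALSE), two-sided. All 10 libraries entered 1 model with 5 group means, 5 residual degrees of freedom and a common biological coefficient of variation of 0.147. Benjamini-Hochberg FDR was taken over all genes at 0.05. Intervals are 95% intervals of the fit. Ratios on 1 to 3 counts have exact counting intervals, and a group at 0 was set to 3 counts a library. The test was checked on simulated counts with known changes.

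Same-numbered libraries of a genotype deviated together (correlation across genes 0.303 for WT and 0.421 to 0.445 for KO), and those of different genotypes did not (-0.011 to 0.11), so the mouse within genotype served as a block in an alternative fit. Other alternatives were no filter, RLE factors, DESeq2 (version 1.42.0), a block by number, each library left out, and both libraries of WT mouse 1 left out.

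Levels of all 10 genes are reported in every group. Each comparison gives every tested gene that passed, and only some of those that did not. From the lists of related genes, up to 4 called genes of lowest p were eligible for naming in each comparison; *Runx3*, *Cd44*, *Ifng* and the marker sums are values beside results. The genes and lists were chosen with earlier results of these data known. Profiles used log2 CPM with a prior count of 2. No promoter or protein sequence beyond the 6 promoters was used here.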

Additional observations from a re-analysis of the deposited data

Results flagged for a closer look

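The contrast of Tregs with non-Tregs for *Prf1* differed between genotypes when the mouse was a block in edgeR's fit: log2 -2.49 in WT and -1.41 in KO, a difference of 1.08 (SE 0.21, FDR 0.036), with Tregs lower in 2 of 2 mice of each genotype. Without the block the difference was the same size (1.08, SE 0.23) and did not pass over all genes (FDR 0.48). *Prf1* was 53.34 and 52.73 CPM in WT non-Tregs, 20.18 and 23.32 CPM in KO non-Tregs, and 7.93 to 9.85 CPM in the 4 Treg libraries. The blocked fit called 148 genes for this difference and the unblocked fit 0.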

How the results depend on the processing

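With 2 libraries a group, a fit that leaves 1 out assumes that the lone library varies like the other groups. Leaving out 1 library (or both of WT mouse 1) changed how many of the 9 genes were called in most comparisons. It also changed how many of all genes were called, so the number called in such a fit is not a result about the 9 genes. Against KO non-Tregs, KO FoxP3+CD25- cells had 1 gene called, but 3 without the filter, 2 with DESeq2, 2 with a block by number and 4 with the mouse as a block; against WT non-Tregs they had 2, but 6 without the filter. With the mouse as a block the interaction gave 1 gene instead of 0. The block changed no call of the 9 genes beyond those given in the results and these counts. Block by number also called *Gzmb* in WT Tregs (FDR 0.033), *Ctsw* in KO Tregs (FDR 0.0499) and *Prf1* in KO FoxP3+CD25- cells (FDR 0.045 against KO and 0.024 against WT non-Tregs); numbers of different genotypes share only a number. The cause of these changes was not tested.

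Over all genes, KO against WT non-Tregs gave 20 calls in edgeR, 91 without the filter, 103 with DESeq2 and 108 with the block by number; KO against WT Tregs gave 1, 5, 5 and 4. KO FoxP3+CD25- cells gave 230 against KO non-Tregs (411 without the filter, 353 with DESeq2, 403 and 786 with the block by number and by mouse) and 106 against WT non-Tregs (238, 204 and 217). The interaction gave 0 (7, 23, 10 and 148). The mouse block gave 2634 instead of 1504 for Tregs against non-Tregs in WT, 1649 instead of 874 in KO, and 2090 instead of 967 for KO FoxP3+CD25- cells against KO Tregs.

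Outside left-out libraries, 311 of 342 fold changes of single genes kept their direction and side of the threshold, 27 came to pass, 1 ceased to pass and 3 changed sign: in KO against WT non-Tregs, *Fasl* was 0.0084 with DESeq2, and *Gzmk* 0.10 and *Ccl5* 0.074 with the block by number. With a library left out, 283 of 377 kept both, 9 came to pass, 50 ceased to pass and 35 changed sign. The results that changed sign had these log2 ranges over single libraries left out. In KO against WT non-Tregs, *Ccl5* ran from -1.11 to 2.41, *Gzmk* from -1.03 to 1.51, *Gzmb* from -0.67 to 0.98, *Klrg1* from -0.68 to 5.52, *Nkg7* from -0.063 to 1.58 and *Fasl* from -0.25 to 0.22. *Ccl5* ran from -3.35 to 0.16 between WT Tregs and non-Tregs, from -0.11 to 1.17 between KO and WT Tregs, and from -1.20 to 0.0745 between KO FoxP3+CD25- cells and WT Tregs. In KO FoxP3+CD25- cells *Fasl* ran from -0.10 to 0.37 against KO and from -0.050 to 0.31 against WT non-Tregs, and *Klrg1* from -2.59 to 0.92 and from -1.21 to 4.40. In the interaction, *Ccl5* ran from -1.98 to 1.53, *Ctsw* from -0.055 to 0.72, *Fasl* from -0.42 to 0.052, *Gzmb* from -0.16 to 1.48 and *Klrg1* from -4.41 to 1.78. Without both libraries of WT mouse 1, the interaction of *Ccl5* was -1.25, of *Ctsw* -0.22 and of *Gzmb* -0.090, KO against WT non-Tregs gave *Ccl5* 2.41, *Gzmk* 1.51, *Gzmb* 0.98 and *Fasl* 0.16, and KO FoxP3+CD25- cells against WT Tregs gave *Ccl5* 0.0749. None of these had passed FDR 0.05 in the edgeR fit to all libraries. Depth limits *Gzma*, *Gzmk*, *Klrd1* and *Klrg1* in the groups where they held 0 to 9 counts a library.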
